A study of Mus musculus with 13 samples.

Results

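Mammary tumors that had regrown under 17-DMAG in mice drinking stavudine were compared with tumors that had regrown under 17-DMAG alone. The comparison was chosen by the treatment labels and held 5 of the 13 libraries of the series: 2 recurrent DMAG+STV tumors and 3 recurrent DMAG tumors. All mice were FVB/N-TgN with the transgene (MMTV-HER2/neu) of line 202Mul/J, labelled wild type for genotype, and carry rat HER2/Neu under the mouse mammary tumor virus promoter and the females develop mammary tumors spontaneously. Both groups received 17-DMAG at 20 mg/kg by intraperitoneal injection 3 times per week, so the controls of this comparison carried the HSP90 inhibitor too. The DMAG+STV mice also drank water with 1 mg/mL STV, an estimated 200 mg/kg per day, begun at 2 months of age or once a tumor had appeared, and the labels do not say which start applied to these 2 tumors. The other 6 tumors, 3 primary untreated and 3 primary STV, had received no 17-DMAG, and 2 cancer-free glands were left out of the main fit. Age at collection and time to recurrence were not given tumor by tumor in the sources used here, nor whether every tumor came from a separate mouse. The p-values therefore measure the spread between these tumors, and any difference in time on treatment cannot be told apart from STV itself.

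STV (d4T) is a thymidine analog that cells phosphorylate through thymidine kinases and that terminates DNA chains made by reverse transcriptases, including that of LINE-1 retrotransposons, and by the mitochondrial DNA polymerase gamma. 17-DMAG blocks the ATPase of HSP90, the chaperone on which HER2 and many other kinases depend, and its inhibition frees HSF1 to switch on heat shock genes. Cytosolic DNA made by reverse transcription can trigger interferon and NF-kB responses, and the study asked about STV in tumors that escape 17-DMAG. Genes of dividing cells are described below, and the number of tumor cells in cycle was not measured here. Genes of DNA replication peak in S phase largely through E2F sites, and genes of mitosis peak in G2 and M phase through the cell cycle homology region (CHR) and CCAAT boxes, bound by the MuvB complex with FOXM1 and by NF-Y. In bulk tumor RNA, fewer cells of a kind and less RNA per cell cannot be told apart.

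Library totals ran from 40786989 to 49484412 counts in the 5 recurrent tumors, so that 3 counts equalled 0.0606 to 0.0751 CPM over all 11 tumors. Levels are CPM, counts scaled by the library total and its TMM factor. Pearson's r of log2 CPM across genes was 0.947 for the DMAG+STV pair, 0.919 to 0.972 within the DMAG group and 0.920 to 0.969 between the groups, so tumors of one group were not closer to each other than to the other group. Recurrent DMAG replicate 1 and DMAG+STV replicate 2 stood apart to a like degree, with r of 0.919 to 0.948 and of 0.920 to 0.951 to the other 4 recurrent tumors. In DMAG replicate 1 the median deviation from the 11-tumor median lay between 0.11 and 0.19 on the log2 scale for the genes of 7 chromosomes and between -0.31 and -0.15 for those of the other 13. The other 4 recurrent tumors stayed between -0.09 and 0.07 on every one of the 20 chromosomes. DNA copy number was not measured. Skeletal muscle genes also varied, with summed levels of 37.3, 32.9 and 1711 CPM in DMAG replicates 1, 2 and 3 and of 80.0 and 6382 CPM in DMAG+STV replicates 1 and 2.

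**Figure D1:**
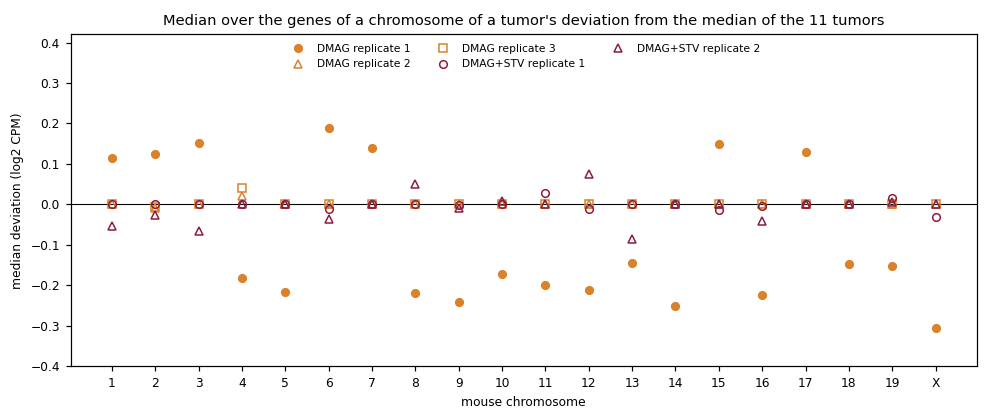
Median over the genes of each mouse chromosome (horizontal axis) of a recurrent tumor's deviation from the median of the 11 tumors (vertical axis, log2 CPM), 1 point per tumor. Recurrent DMAG replicate 1 (filled circles) lies above 0.1 on 7 chromosomes and below -0.1 on 13, and the other 4 recurrent tumors lie between -0.09 and 0.07.

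The edgeR quasi-likelihood test called 0 of 16870 genes (0%) at an adjusted p under 0.05, and the smallest adjusted p was 0.166, shared by 30 genes. Before adjustment, 584 genes were higher with STV at p under 0.05 (3.46%) and 739 lower (4.38%), 1323 in all. Without DMAG replicate 1 these were 2040 of 16722 genes, so list counts given below for that omission stand beside a larger share. The CPM values of the groups did not overlap for 1904 higher genes (11.3%) and 1758 lower genes (10.4%). Both DMAG+STV tumors lay above all 9 other tumors for 456 genes (2.7%) and below all 9 for 544 genes (3.22%). DESeq2 on the same 11 tumors called 270 genes, 80 higher (0.526% of 15216 genes with an adjusted p) and 190 lower (1.25%), while limma voom called 0. The edgeR count was 141 without DMAG+STV replicate 1, when replicate 2 stood alone and was assumed to vary like the other groups, 1 (Kctd12b) without DMAG replicate 1 and 0 without any other recurrent tumor. Replicate 2 of the DMAG+STV group lay farther out than replicate 1 in most of these genes, being the lower of the pair in 605 of the 739 lower genes and the higher in 466 of the 584 higher genes.

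The clearest difference was in genes of mitosis. The 12 lower genes named by rank of p were 4930523C07Rik, Knstrn, Kif18b, Cenpa, Ccnb1, Kctd12b, H2afz, Cdca3, Cdc25b, Mad2l1, Gas2l3 and Cit. Most encode parts of the dividing cell: Ccnb1 the cyclin that drives mitotic entry, Cdc25b a phosphatase that activates its kinase, Cenpa the centromeric histone, Kif18b and Knstrn spindle proteins, Mad2l1 a spindle checkpoint protein, and Gas2l3 and Cit proteins of cytokinesis. All 12 were lower in both DMAG+STV tumors than in all 9 other tumors, with log2 fold changes from -2.89 to -0.97. Their adjusted p-values from edgeR, with those of the 12 higher genes below, ran from 0.166 to 0.215, so none was called, and DESeq2 called all 24. These 24 genes kept their direction and an unadjusted p under 0.05 under each alternative listed in the closing section. The genes were chosen on these same counts by non-overlap and small p, so neither this nor the DESeq2 calls are separate support.

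Ccnb1 (chromosome 13, 100778739 to 100786486) was at 35.4, 34.2 and 35.7 CPM in the DMAG tumors and at 11.8 and 5.78 CPM in the DMAG+STV tumors, a log2 fold change of -1.99 (SE 0.32, edgeR adjusted p = 0.166). The 6 primary tumors held 20.8 to 33.9 CPM, so the DMAG tumors sat just above the top of that range and the DMAG+STV tumors below its bottom. Cenpa (chromosome 5, 30666877 to 30674837) was at 26.5, 26.2 and 25.6 CPM against 9.18 and 4.38 CPM, a log2 fold change of -1.94 (SE 0.30, edgeR adjusted p = 0.166), beside 15.1 to 23.1 CPM in primary tumors. Kif18b (chromosome 11, 102905518 to 102925134) was at 13.7, 16.9 and 15.9 CPM against 6.15 and 4.44 CPM, and at 9.74 to 13.5 CPM in primary tumors. For Ccnb1 and Cenpa the 3 DMAG values were tightly grouped and the DMAG+STV pair lay farther apart, while for Kif18b the DMAG tumors were the more spread group in CPM.

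H2afz, which encodes the histone variant H2A.Z, was at 101, 86.9 and 84.5 CPM in the DMAG tumors and at 52.6 and 40.3 CPM in the DMAG+STV tumors. Mad2l1 was at 29.3, 19.7 and 23.6 CPM against 11.4 and 8.54 CPM. Neither pair of groups overlapped, although the DMAG tumors themselves differed more than for Ccnb1. Kctd12b (chromosome X, 153685154 to 153696386) had the largest difference of the 12, a log2 fold change of -2.89 (SE 0.46), and was not among the mitosis genes. It was at 14.1, 42.9 and 40.1 CPM in the DMAG tumors and at 3.71 and 5.00 CPM in the DMAG+STV tumors, beside 35.6 to 53 CPM in primary tumors. DMAG replicate 1 lay well below the other DMAG tumors, and without it the edgeR adjusted p of Kctd12b was 0.00908.

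**Figure D2:**
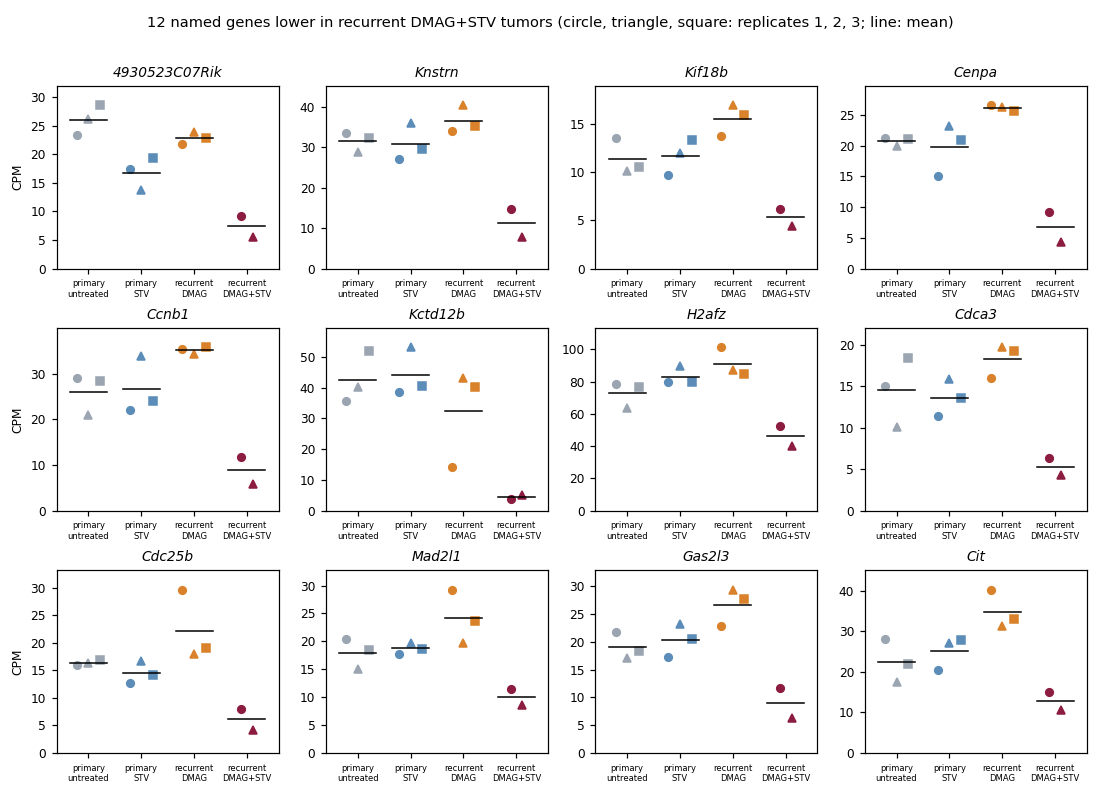
Levels in CPM (vertical axes, from 0) of the 12 lower genes in each of the 11 tumors, by group (horizontal axes), with circles, triangles and squares for replicates 1, 2 and 3 and a line at the mean. In every panel both recurrent DMAG+STV tumors lie below the 9 other tumors, as for Ccnb1 at 11.8 and 5.78 CPM.

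Of the 30 genes in the proliferation list, 30 had a negative log2 fold change. The unadjusted p was under 0.05 for 24, beside 4.38% of all genes tested, and the groups did not overlap for 25, beside 10.4%. The median log2 fold change of the list was -1.44, beside 0.00 over all genes tested. Both DMAG+STV tumors lay below all 9 other tumors for 19 of the 30 genes, beside 3.22% of all genes tested. DESeq2 called 23 of the 30, beside 1.25% called lower among all genes with an adjusted p. The summed level of the list was 1846 to 2072 CPM in the DMAG tumors, 548 and 1018 CPM in the DMAG+STV tumors and 1205 to 1815 CPM in the 6 primary tumors. Mki67, the source of the Ki-67 antigen, was at 552, 530 and 532 CPM in the DMAG tumors and at 209 and 88.7 CPM in the DMAG+STV tumors, a log2 fold change of -1.85 (SE 0.33, edgeR adjusted p = 0.166). Primary tumors held 327 to 506 CPM of Mki67, so both recurrent groups lay outside that range, on opposite sides.

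Grouped by role after their values were seen, the list fell into 23 genes of G2 and mitosis and 7 of DNA replication. The log2 fold changes of the 23 ran from -2.22 (Cenpf) to -1.15 (Top2a), each with an unadjusted p between 0.000115 and 0.00721, and the groups did not overlap for any of them. The 6 subunits of the MCM helicase, which opens DNA at replication origins, had log2 fold changes from -0.55 to -0.27 and unadjusted p-values from 0.0636 to 0.207, and 5 of the 6 overlapped between the groups. Pcna, the sliding clamp of DNA polymerases, was at -0.51 with an unadjusted p of 0.0241. The 2 ranges of log2 fold changes did not touch. The difference between them was not tested.

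Plk1, the kinase that matures centrosomes, was at 32.8, 26.2 and 28.0 CPM in the DMAG tumors and at 12.2 and 4.57 CPM in the DMAG+STV tumors, a log2 fold change of -1.79 (SE 0.36). Cenpf, a kinetochore protein, was at 122, 149 and 133 CPM against 43.6 and 14.4 CPM. Cdc20, an activator of the anaphase-promoting complex, was at 34.0, 34.5 and 37.1 CPM against 12.7 and 5.61 CPM. Foxm1, whose product binds the promoters of mitosis genes, was at 33.9, 29.3 and 32.2 CPM against 17.0 and 8.03 CPM. These genes shared one order, with DMAG+STV replicate 2 lowest, replicate 1 next and the DMAG tumors on top. By contrast Mcm4 was at 57.7, 41.2 and 52.3 CPM in the DMAG tumors and at 42.7 and 36.8 CPM in the DMAG+STV tumors, where replicate 1 lay inside the DMAG range. Mcm2 was at 54.1, 28.7 and 41.3 CPM against 35.2 and 25.7 CPM, again overlapping. In all 30 genes DMAG+STV replicate 2 was below replicate 1, and replicate 1 alone lay below the 3 DMAG tumors in 25.

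DMAG+STV replicate 2, the lowest tumor for these genes, also held the most muscle RNA. Beside summed muscle levels of 6382, 1711 and 4834 CPM in DMAG+STV replicate 2, DMAG replicate 3 and primary untreated replicate 1, Mki67 was at 88.7, 532 and 448 CPM. Without that tumor, which left 1 in the DMAG+STV group, the median log2 fold change of the 30 genes was -1.02. Without DMAG replicate 1 as well it was -0.99. Leaving the muscle, milk and adipocyte genes out of the totals left the count of genes at an unadjusted p under 0.05 at 24 of 30. These genes were a small part of each total, so this step could hardly change the count and cannot speak to dilution by other tissue. Epcam, an epithelial surface protein, was also lower, at 923, 1180 and 1150 CPM in the DMAG tumors and at 783 and 426 CPM in the DMAG+STV tumors (log2 fold change -0.84, SE 0.24, edgeR adjusted p = 0.399). The part of tissue mixture in the mitosis result was not tested.

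The same genes were then compared by STV in primary tumors, which share no library with the recurrent tumors. In primary tumors the 23 mitosis genes had log2 fold changes from -0.18 to 0.56 and 0 of the 23 had an unadjusted p under 0.05. A test of the difference between the 2 STV effects called 0 of 16870 genes by edgeR (0%) at an adjusted p under 0.05, with a smallest adjusted p of 0.435. It had 1322 genes (7.84%) at an unadjusted p under 0.05, and DESeq2 called 185. All 23 mitosis genes and 25 of the 30 list members were among those under 0.05 by edgeR. This test contains the recurrent contrast in which these genes were already seen to differ, so the counts are not separate support. For Mki67 the difference between the effects was -1.85 (SE 0.43, unadjusted p = 0.00169, edgeR adjusted p = 0.435), and the 2 primary groups differed by -0.0041 on the log2 scale. The lowest of the 3 DMAG tumors lay above the highest primary tumor for 12 of the 23 genes, so for these genes the contrast held high DMAG tumors as well as low DMAG+STV tumors.

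**Figure D3:**
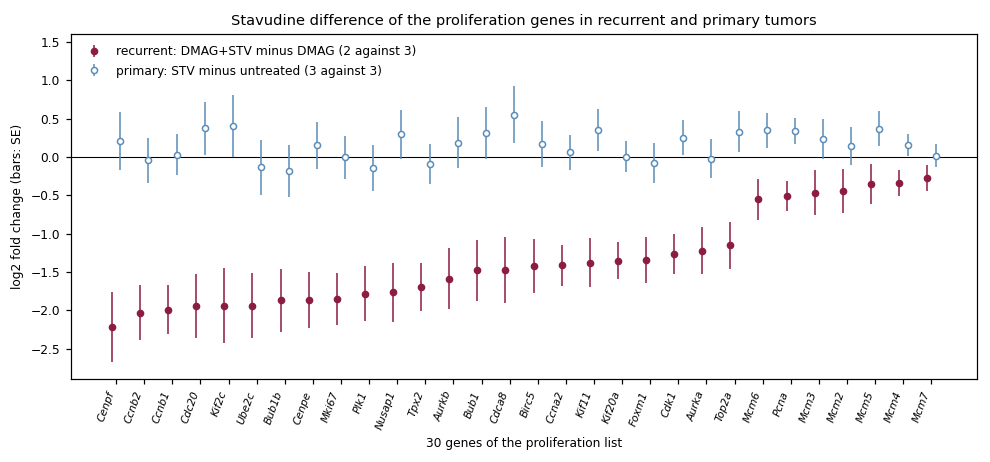
Log2 fold change with SE (vertical axis) of the 30 genes of the proliferation list (horizontal axis, ordered by value) for STV in recurrent tumors (filled, 2 against 3 tumors) and in primary tumors (open, 3 against 3). The 23 mitosis genes lie between -2.22 and -1.15 in recurrent tumors, the MCM genes and Pcna between -0.55 and -0.27, and the primary values between -0.18 and 0.56.

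Promoters of some of these genes are shown because CHR elements and CCAAT boxes were frequent among the mitosis genes. Genes of mitosis are known to hold these elements, as given above, and the promoters printed were chosen by them. Their frequency is therefore not separate support for a difference with STV. The sequences are from RefSeq, build GRCm38.p6, from 250 bases before to 50 bases after the start, read 5′ to 3′ along the gene. Capitals mark CHR elements (TTTGAA or TTCGAA) and CCAAT boxes (CCAAT), each on either strand, so that TTCAAA and ATTGG are also marked. The first 5 are the lower or proliferation genes with the smallest p that held a CHR element and at least 2 CCAAT boxes, at chr11:102925075-102925374, minus strand (Kif18b), chr5:30666636-30666935, plus strand (Cenpa), chr6:124829926-124830225, plus strand (Cdca3), chr9:70421505-70421804, minus strand (Ccnb2) and chr7:135716330-135716629, minus strand (Mki67). Ccnb1, at chr13:100786437-100786736, minus strand, is set beside them as a lower gene with CCAAT boxes and no CHR letters in this window.
Kif18b: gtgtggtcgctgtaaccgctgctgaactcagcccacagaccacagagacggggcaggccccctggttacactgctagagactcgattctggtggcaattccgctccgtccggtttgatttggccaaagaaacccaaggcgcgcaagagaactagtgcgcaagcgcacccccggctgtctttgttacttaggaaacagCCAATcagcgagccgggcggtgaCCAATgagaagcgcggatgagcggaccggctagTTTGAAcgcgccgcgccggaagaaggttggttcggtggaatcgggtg
Cenpa: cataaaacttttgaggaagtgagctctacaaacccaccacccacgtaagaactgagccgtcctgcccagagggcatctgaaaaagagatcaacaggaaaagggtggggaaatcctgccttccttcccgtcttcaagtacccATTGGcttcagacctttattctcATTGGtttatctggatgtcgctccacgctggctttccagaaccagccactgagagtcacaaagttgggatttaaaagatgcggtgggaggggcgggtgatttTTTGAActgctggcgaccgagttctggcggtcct
Cdca3: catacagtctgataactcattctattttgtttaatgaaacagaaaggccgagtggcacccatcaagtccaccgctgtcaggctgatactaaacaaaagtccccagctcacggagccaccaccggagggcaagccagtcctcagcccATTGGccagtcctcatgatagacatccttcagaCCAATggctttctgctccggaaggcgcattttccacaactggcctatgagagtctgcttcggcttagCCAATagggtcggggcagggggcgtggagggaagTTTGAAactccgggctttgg
Ccnb2: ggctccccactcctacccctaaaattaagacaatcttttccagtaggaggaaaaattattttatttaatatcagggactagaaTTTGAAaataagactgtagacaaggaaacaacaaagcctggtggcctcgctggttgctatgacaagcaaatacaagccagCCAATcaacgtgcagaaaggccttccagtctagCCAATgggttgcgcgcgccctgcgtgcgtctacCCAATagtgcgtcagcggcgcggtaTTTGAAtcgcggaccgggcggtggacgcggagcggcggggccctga
Mki67: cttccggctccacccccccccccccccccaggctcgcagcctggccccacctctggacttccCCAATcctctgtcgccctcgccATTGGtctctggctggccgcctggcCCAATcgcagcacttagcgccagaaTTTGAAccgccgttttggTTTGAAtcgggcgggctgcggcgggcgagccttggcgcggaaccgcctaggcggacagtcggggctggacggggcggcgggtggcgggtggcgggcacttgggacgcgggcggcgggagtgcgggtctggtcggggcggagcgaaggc
Ccnb1: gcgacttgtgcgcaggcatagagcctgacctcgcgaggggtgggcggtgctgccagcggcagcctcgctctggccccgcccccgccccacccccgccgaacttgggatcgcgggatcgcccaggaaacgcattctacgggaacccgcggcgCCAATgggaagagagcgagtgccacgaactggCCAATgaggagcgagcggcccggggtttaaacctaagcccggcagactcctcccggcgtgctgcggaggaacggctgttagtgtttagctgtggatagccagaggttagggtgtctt

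In Kif18b, Cenpa and Ccnb2 a CHR element began 4, 17 and 5 bases after the start, and in Mki67 both lay before it, 116 and 98 bases upstream. The 2 CCAAT boxes of Kif18b began 53 and 30 bases upstream of the start and those of Ccnb1 99 and 67 bases upstream. Promoters were matched for 24 of the 30 proliferation genes and for 12374 of the 16870 genes tested. Of the 10 matched among the 12 lower genes, 5 (50%) held a CHR element and 3 (30%) held it with at least 2 CCAAT boxes. Of the 24 matched proliferation genes these were 16 (66.7%) and 11 (45.8%). Of the 18 matched mitosis genes, a set split off after values were seen, 14 (77.8%) held a CHR element, beside 16.8% of all matched genes, and 10 (55.6%) held it with at least 2 CCAAT boxes, beside 2.4%. Of the 6 matched replication genes 2 (33.3%) held a CHR element. The order was turned for the E2F element (TTTCGCGC or TTTGGCGC on either strand), which was in 4 of those 6 (66.7%), in 1 of the 18 mitosis genes (5.56%) and in 1.61% of all matched genes. A match describes letters in this window and shows neither a binding site nor a cause.

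The 12 higher genes had log2 fold changes from 0.65 to 3.22 and lay above all 9 other tumors in both DMAG+STV tumors. Those described here were Tkt, Ptger1, Fbxw4, Lurap1l, Hspb1, Acp5, Chil1, Baiap2, Abcb9, Ppap2b and Pcdhgc3. Tkt encodes transketolase, which links the pentose phosphate pathway to glycolysis. Tkt (chromosome 14, 30549131 to 30574724) was at 180, 167 and 191 CPM in the DMAG tumors and at 355 and 453 CPM in the DMAG+STV tumors, a log2 fold change of 1.17 (SE 0.15, edgeR adjusted p = 0.166). Primary tumors held 140 to 201 CPM, so the DMAG tumors lay inside that range and the DMAG+STV tumors well above it. The median over the 12 genes of the pentose phosphate list was 0.09, with 2 higher and 1 lower at an unadjusted p under 0.05. Without any 1 of the recurrent tumors a single member was higher. Rbks, a ribokinase, was at 4.12 and 4.88 CPM against 2.47 to 3.06 CPM, and Rpia, an isomerase, was lower, at 18.8 and 15.7 CPM against 22.2 to 23.6 CPM.

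Chil1, which encodes the secreted chitinase-like protein YKL-40, had the largest difference of the 12. Chil1 (chromosome 1, 134182156 to 134190031) was at 632, 242 and 169 CPM in the DMAG tumors and at 2971 and 3529 CPM in the DMAG+STV tumors, a log2 fold change of 3.22 (SE 0.56, edgeR adjusted p = 0.166). The 2 tumors stood close together and far above the 91.0 to 279 CPM of primary tumors. Lrg1, a secreted glycoprotein of the acute phase, was at 49.5, 13.1 and 12.9 CPM against 271 and 81.0 CPM (log2 fold change 2.81, SE 0.66, edgeR adjusted p = 0.279). Lcn2, the siderophore-binding lipocalin, was at 4183, 2629 and 2134 CPM against 5746 and 5076 CPM with an unadjusted p of 0.0569. In the whole list of 14, 9 were above 0 and 5 below, and 2 were higher and 0 lower at an unadjusted p under 0.05 (3.46% and 4.38% of all genes). The groups did not overlap for 4, all higher, beside 11.3% of all genes. Without DMAG replicate 1 the count of 2 was 6 of the 12 members fitted. In that fit 2040 of all 16722 genes were under 0.05 in both directions together. Spp1 (osteopontin) was at 3149, 25.7 and 39.6 CPM in the DMAG tumors and at 4576 and 668 CPM in the DMAG+STV tumors, where DMAG replicate 1 overlapped the DMAG+STV range.

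Acp5, the tartrate-resistant acid phosphatase, was at 37.4, 36.0 and 44.2 CPM in the DMAG tumors and at 63.1 and 69.6 CPM in the DMAG+STV tumors, and Abcb9, a lysosomal peptide transporter, at 3.64, 2.90 and 3.88 CPM against 11 and 8.74 CPM. Ptger1, a prostaglandin E2 receptor, had the smallest difference and the tightest values, at 22.4, 23.0 and 23.2 CPM against 35.8 and 36.0 CPM. For Ptger1 primary tumors lay between the groups at 30.1 to 33.4 CPM, so its log2 fold change of 0.65 (SE 0.10) held low DMAG tumors as well as high DMAG+STV tumors. Ppap2b, a lipid phosphatase, and Pcdhgc3, a protocadherin, rested more on DMAG+STV replicate 2, at 471 and 219 CPM in it against 192 and 66.1 CPM in replicate 1. Among the named genes, Ptger1, Acp5, Pcdhgc3, 4930523C07Rik, Cdc25b and Kif20a overlap a gene on the opposite strand, and Pcdhgc3 also shares exons with its cluster, so that reads there may count to either gene.

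**Figure D4:**
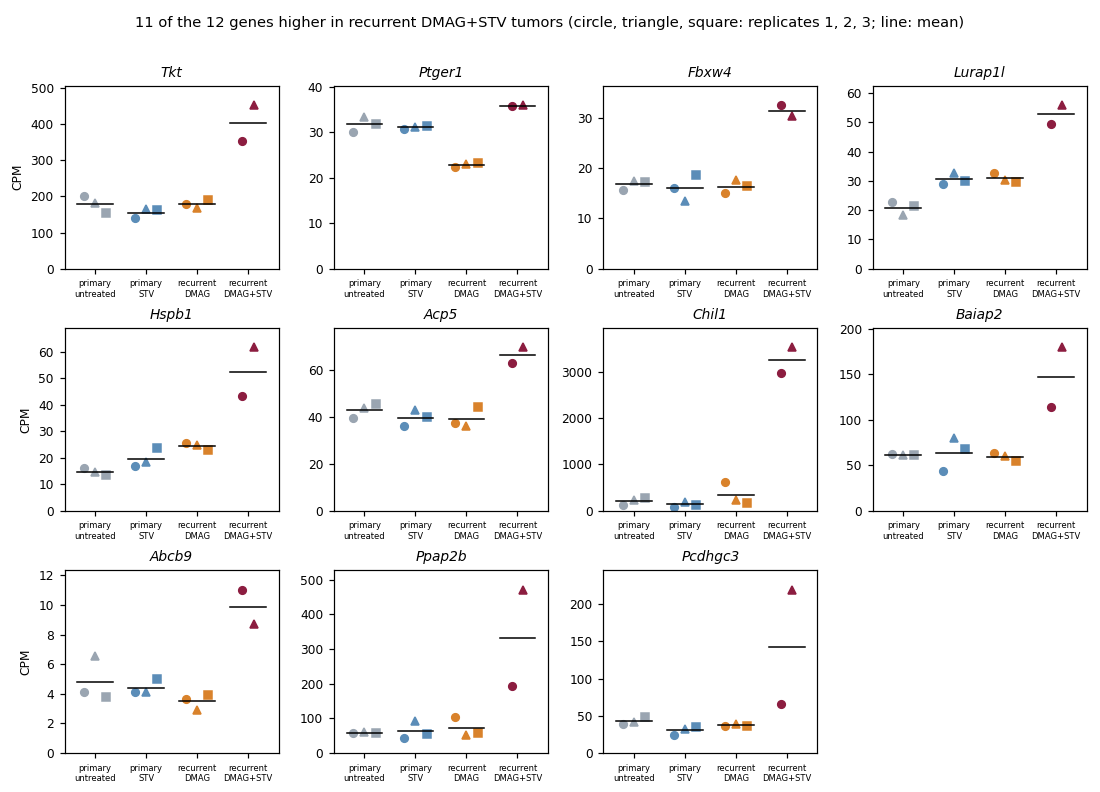
Levels in CPM (vertical axes, from 0) of 11 of the 12 higher genes in each of the 11 tumors, by group (horizontal axes), with circles, triangles and squares for replicates 1, 2 and 3 and a line at the mean. Both recurrent DMAG+STV tumors lie above the 9 other tumors in every panel, as for Chil1 at 2971 and 3529 CPM, and in Ptger1 the recurrent DMAG tumors lie below the primary tumors.

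The difference between the STV effects in recurrent and primary tumors had an unadjusted p under 0.05 for 23 of the 24 named genes. Over all genes that share was 7.84%. Adjusted p-values of the 24 ran from 0.435 to 0.788 by edgeR, so none was called. These genes were chosen for a small p in the recurrent contrast, which this difference contains, so the count is not separate support. The exception among the 24 was Lurap1l. It was at 32.8, 30.2 and 29.6 CPM in the DMAG tumors and at 49.6 and 55.8 CPM in the DMAG+STV tumors, a difference of 0.77 (SE 0.13), and STV in primary tumors gave 0.55 (SE 0.12). The difference between these effects was 0.22 with an unadjusted p of 0.239.

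HSP90 and its co-chaperones are the direct field of 17-DMAG, which both groups received. Of the 24 heat shock genes, 3 were higher and 1 lower with STV at an unadjusted p under 0.05, beside 3.46% and 4.38% of all genes, and the list's median was 0.22. Over all genes, 2040 of 16722 were under 0.05 in both directions together without DMAG replicate 1. The count of 3 was 9 without DMAG replicate 1, 1 without DMAG replicate 2 and 2 without DMAG replicate 3 or DMAG+STV replicate 2, and the lower count was 0 without DMAG+STV replicate 2. Hspb1, the small heat shock protein HSP27 (chromosome 5, 135887919 to 135889563), was at 25.4, 24.8 and 23.1 CPM in the DMAG tumors and at 43.1 and 61.6 CPM in the DMAG+STV tumors, a log2 fold change of 1.10 (SE 0.19, edgeR adjusted p = 0.166). It was the member with the smallest p, and primary tumors held 13.5 to 23.7 CPM. Its promoter is printed because HSF1 switches on heat shock genes, and its site is built from inverted GAA units. Capitals mark the letters GAANNTTC or TTCNNGAA, each of which reads the same on both strands, at chr5:135887669-135887968, plus strand.
Hspb1: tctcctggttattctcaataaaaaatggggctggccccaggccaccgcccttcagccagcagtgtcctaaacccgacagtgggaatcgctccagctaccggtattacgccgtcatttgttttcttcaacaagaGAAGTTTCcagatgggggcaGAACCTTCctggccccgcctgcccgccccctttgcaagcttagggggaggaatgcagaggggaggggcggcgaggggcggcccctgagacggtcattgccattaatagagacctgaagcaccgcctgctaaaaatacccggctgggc
The 2 matches began 117 and 97 bases upstream of the start. Such letters were in 12 of the 19 matched heat shock promoters (63.2%) and in 14.5% of all matched promoters. They show neither a binding site nor a cause, and a part of HSF1 in the Hspb1 difference was not tested. The summed level of the heat shock list overlapped, at 5299 to 5864 CPM in the DMAG tumors and at 5103 and 5633 CPM in the DMAG+STV tumors.

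The cytosolic HSP90 gene Hsp90ab1 was at 1485, 1189 and 1282 CPM in the DMAG tumors and at 1663 and 1656 CPM in the DMAG+STV tumors (log2 fold change 0.33, SE 0.14, unadjusted p = 0.0401). Ahsa1, which speeds the ATPase of HSP90, was at 56.2, 56.1 and 61.9 CPM against 64.8 and 79.8 CPM. The endoplasmic reticulum member Hsp90b1 (GRP94) went the other way, at 983, 1230 and 1258 CPM against 704 and 562 CPM (log2 fold change -0.87, SE 0.27, edgeR adjusted p = 0.434). Hspa5 (BiP), of the same compartment, was at 915, 853 and 713 CPM against 586 and 485 CPM with an unadjusted p of 0.0710. Both endoplasmic reticulum chaperones lay below all 9 other tumors in the DMAG+STV tumors. The inducible HSP70 genes Hspa1a and Hspa1b overlapped, at 9.08 to 20.7 CPM and 24.2 to 43.9 CPM in the DMAG+STV tumors and at 12.7 to 17.4 CPM and 28.1 to 47.1 CPM in the DMAG tumors. These paralogs are nearly identical, and their split of reads is uncertain.

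The genes best known for handling 17-DMAG overlapped between the groups. Nqo1, whose quinone reductase turns 17-DMAG into its more active hydroquinone, was at 51.0, 29.0 and 19.1 CPM in the DMAG tumors and at 46.9 and 17.2 CPM in the DMAG+STV tumors. The P-glycoprotein genes Abcb1a and Abcb1b were at 3.64 and 2.93 CPM and at 1.96 and 9.04 CPM in the DMAG+STV tumors, beside DMAG ranges of 1.53 to 5.57 CPM and 1.28 to 3.74 CPM. DMAG+STV replicate 2 alone lay outside, for Abcb1b. Of the 27 genes in the list of NRF2 and drug handling, 2 were higher at an unadjusted p under 0.05, beside 3.46% of all genes, and 1 to 3 were with a recurrent tumor left out. Ephx1, the microsomal epoxide hydrolase, was at 54.2, 67.2 and 55.5 CPM against 103 and 169 CPM, and Me1, a cytosolic source of NADPH, was at 266, 230 and 269 CPM against 502 and 610 CPM. Primary tumors reached 127 CPM of Ephx1 and 970 CPM of Me1, so only DMAG+STV replicate 2, for Ephx1, lay above the range of the other tumors.

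Erbb2, whose count may include rat transgene reads, was at 3902, 8505 and 10863 CPM in the DMAG tumors and at 13769 and 8161 CPM in the DMAG+STV tumors. The groups overlapped (log2 fold change 0.50, SE 0.43, edgeR adjusted p = 0.862). Among 23 receptors, ligands and outputs of the ERBB pathway 2 were higher and 2 lower at an unadjusted p under 0.05, beside 3.46% and 4.38% of all genes. The higher count was 0 without DMAG+STV replicate 2 or DMAG replicate 2 or 3 and 1 without DMAG replicate 1, and the lower count was 6 without DMAG replicate 1 and 1 without DMAG replicate 2 or 3. The output genes Spry1 and Etv4, induced by ERK, were lower, with Spry1 at 29.3, 37.5 and 51.8 CPM against 19.1 and 11.6 CPM and Etv4 at 37.4, 61.3 and 59.3 CPM against 23.9 and 36.2 CPM. Nrg1, a ligand of ERBB3 and ERBB4, was at 9.43, 0.603 and 0.865 CPM in the DMAG tumors and at 3.6 and 85.9 CPM in the DMAG+STV tumors. Its log2 fold change of 3.62 (SE 1.5) rested on replicate 2 and was -0.02 without it.

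Of 26 genes for other receptor kinases and their ligands, 3 were higher and 2 lower at an unadjusted p under 0.05, beside 3.46% and 4.38% of all genes, and without DMAG+STV replicate 2 these counts were 0 and 1. Ddr1, a collagen receptor, was at 171, 200 and 195 CPM in the DMAG tumors and at 141 and 105 CPM in the DMAG+STV tumors, below the 162 to 215 CPM of primary tumors. Kitl, the ligand of KIT, was at 128, 145 and 118 CPM against 176 and 318 CPM. Igf1r was at 95.2, 146 and 88.7 CPM against 69.0 and 26.9 CPM. DESeq2 called Ddr1 and Kitl, and edgeR gave adjusted p-values of 0.328 and 0.331.

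Genes that activate STV or supply its competitor were examined because the drug acts through them. In the list of thymidine salvage and dNTP supply 0 of 22 were higher and 5 lower at an unadjusted p under 0.05, beside 3.46% and 4.38% of all genes, and the median was -0.01. Tk1, the S phase thymidine kinase that phosphorylates STV, was at 46.5, 35.8 and 38 CPM in the DMAG tumors and at 29.6 and 21.1 CPM in the DMAG+STV tumors (log2 fold change -0.66, SE 0.20, edgeR adjusted p = 0.430). Rrm1, a subunit of ribonucleotide reductase, was at 132, 98.6 and 105 CPM against 83.1 and 57 CPM, and Dut, which removes dUTP, was at 24.9, 20.1 and 21.6 CPM against 16.0 and 16.1 CPM. For all 3 genes the groups did not overlap, yet both DMAG+STV tumors were not below every primary tumor. The count of 5 was 1 without DMAG+STV replicate 2 and 3 without DMAG replicate 3.

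The 18 genes that maintain mitochondrial DNA, which STV can deplete through polymerase gamma, gave 0 members at an unadjusted p under 0.05. That share was 7.84% over all genes, and the median of the list was 0.02. Polg, the catalytic subunit of polymerase gamma, was at 59.5, 51.5 and 51.1 CPM in the DMAG tumors and at 50.1 and 47.9 CPM in the DMAG+STV tumors (log2 fold change -0.14, SE 0.12). The members with the smallest p were Tfb2m, a mitochondrial transcription factor, at 21.7, 21.9 and 21.1 CPM against 19.8 and 18.7 CPM, Polrmt, the mitochondrial RNA polymerase, at 21.4, 25.1 and 27.6 CPM against 28.9 and 30.9 CPM, and Mgme1, a nuclease, at 13.7, 15.4 and 14.0 CPM against 13.7 and 11 CPM. Mitochondrial DNA itself was not measured here.

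The list of the type I interferon response had 0 of 29 members at an unadjusted p under 0.05, beside 7.84% of all genes. It had 0 members whose groups did not overlap, beside 11.3% higher and 10.4% lower of all genes, and a median of -0.07. Cxcl10, a chemokine, and Ifi35 had the smallest p in the list. Cxcl10 was at 1.42, 0.557 and 1.44 CPM in the DMAG tumors and at 0.720 and 0.518 CPM in the DMAG+STV tumors, and Ifi35 was at 19.3, 19.8 and 23.6 CPM against 26.1 and 21.6 CPM. The summed level of the list was 703 to 1361 CPM in the DMAG tumors and 490 and 1301 CPM in the DMAG+STV tumors, so 1 of the pair lay below the DMAG range and the other inside it. The median of the list was -1.18 without DMAG+STV replicate 1 and 0.38 without replicate 2.

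Of 29 genes of the NF-kB and TNF response, 0 were higher and 4 lower at an unadjusted p under 0.05, beside 3.46% and 4.38% of all genes, with a median of -0.14. Nfkbia, the inhibitor that NF-kB induces as its own feedback, was at 50.5, 40.8 and 31.3 CPM in the DMAG tumors and at 31.5 and 22.3 CPM in the DMAG+STV tumors, with replicate 1 inside the DMAG range. Nfkbiz, a nuclear cofactor, was at 61.3, 48.1 and 35.6 CPM against 34.9 and 30.6 CPM. Tnfaip3 (A20), another feedback inhibitor, was at 19.9, 12.4 and 9.27 CPM against 8.44 and 8.09 CPM, and Tnf was at 3.84, 2.99 and 3.62 CPM against 1.32 and 0.690 CPM. The edgeR adjusted p-values of Nfkbia, Nfkbiz and Tnfaip3 were all 0.609. Without DMAG replicate 1, which was highest for these 3 feedback genes, 1 of 29 was lower and 4 were higher and the median was 0.18, so the direction of this list turned on that tumor. The same omission put 2040 of all 16722 genes under 0.05 in both directions together. The lower count was 1 without DMAG replicate 2, 2 without DMAG+STV replicate 1 and 0 without DMAG+STV replicate 2.

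Among 24 genes of cytosolic nucleic acid sensing and LINE-1 restriction, 1 was higher and 0 lower at an unadjusted p under 0.05, beside 3.46% and 4.38% of all genes, with a median of -0.13. The median was 0.05 without DMAG+STV replicate 2 and 0.01 without DMAG replicate 1. The count of 1 was 3 without DMAG replicate 1 and 0 without DMAG+STV replicate 2 or DMAG replicate 3. Morc2a, a silencer of LINE-1, was at 100, 73.7 and 72.4 CPM in the DMAG tumors and at 115 and 121 CPM in the DMAG+STV tumors. Apobec3, a cytidine deaminase that restricts retroelements, was at 64.8, 83.4 and 69.9 CPM against 81.9 and 108 CPM. Rnaseh2b, a subunit of the enzyme that removes RNA from hybrids with DNA, was at 13.8, 15.6 and 15.6 CPM against 12 and 10.4 CPM. LINE-1 transcripts were not analysed here.

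The p53 target list had 14 of 19 members above 0, 6 of them at an unadjusted p under 0.05 (3.46% of all genes), with a median log2 fold change of 0.62. Ccng1, a cyclin G gene, was at 71.3, 66.5 and 77.6 CPM in the DMAG tumors and at 107 and 216 CPM in the DMAG+STV tumors (log2 fold change 1.17, SE 0.34, edgeR adjusted p = 0.409). Gadd45a, a DNA damage response gene, was at 7.97, 6.75 and 6.12 CPM against 11.1 and 19.5 CPM. Zmat3 was at 45.5, 22.8 and 27.5 CPM against 38.5 and 130 CPM, and Plk2 at 92.8, 91.6 and 84.5 CPM against 63.2 and 517 CPM, where replicate 1 was the lowest of the 5 tumors. Cdkn1a, the cell cycle inhibitor p21, was at 51.5, 8.72 and 6.54 CPM in the DMAG tumors and at 27.0 and 125 CPM in the DMAG+STV tumors, with an unadjusted p of 0.129. The higher count was 3 without DMAG replicate 2, 2 without DMAG replicate 3 and 9 without DMAG+STV replicate 1. This list rested most on DMAG+STV replicate 2. Without it the median was -0.09, while under the same omission the median of the proliferation list was -1.02.

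Lists of amino acid, lipid and glycolysis genes held single members at an unadjusted p under 0.05, and edgeR called none. Of 22 stress response and amino acid genes 1 was higher and 1 lower. Of 25 lipid genes 2 were higher, and of 27 glycolysis and hypoxia genes 1 was. The shares over all genes were 3.46% higher and 4.38% lower. Arg1, which splits arginine, was at 99.2, 66.4 and 138 CPM in the DMAG tumors and at 30.4 and 13.4 CPM in the DMAG+STV tumors, a log2 fold change of -2.21 (SE 0.58, edgeR adjusted p = 0.332), and primary tumors held 100 to 315 CPM. Psat1, of serine synthesis, was at 59.5, 32.2 and 34.8 CPM against 55.9 and 136 CPM, with replicate 1 inside the DMAG range. Thrsp, a lipogenic regulator, was at 42.3, 19.2 and 39.5 CPM against 78.2 and 326 CPM, and Gpam, of triglyceride synthesis, at 37.2, 35.9 and 41.5 CPM against 50.5 and 47.2 CPM. Psat1 and Thrsp rested more on DMAG+STV replicate 2, with log2 fold changes of 0.40 and 1.21 without it and of 1.67 and 3.26 without replicate 1. Pfkl, the liver-type phosphofructokinase, was at 348, 385 and 407 CPM against 617 and 517 CPM. In the lists these genes came from the medians were between -0.13 and 0.09. The glycolysis and hypoxia median was 0.47 without DMAG replicate 1, with 3 members higher at an unadjusted p under 0.05 in place of 1.

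**Figure D5:**
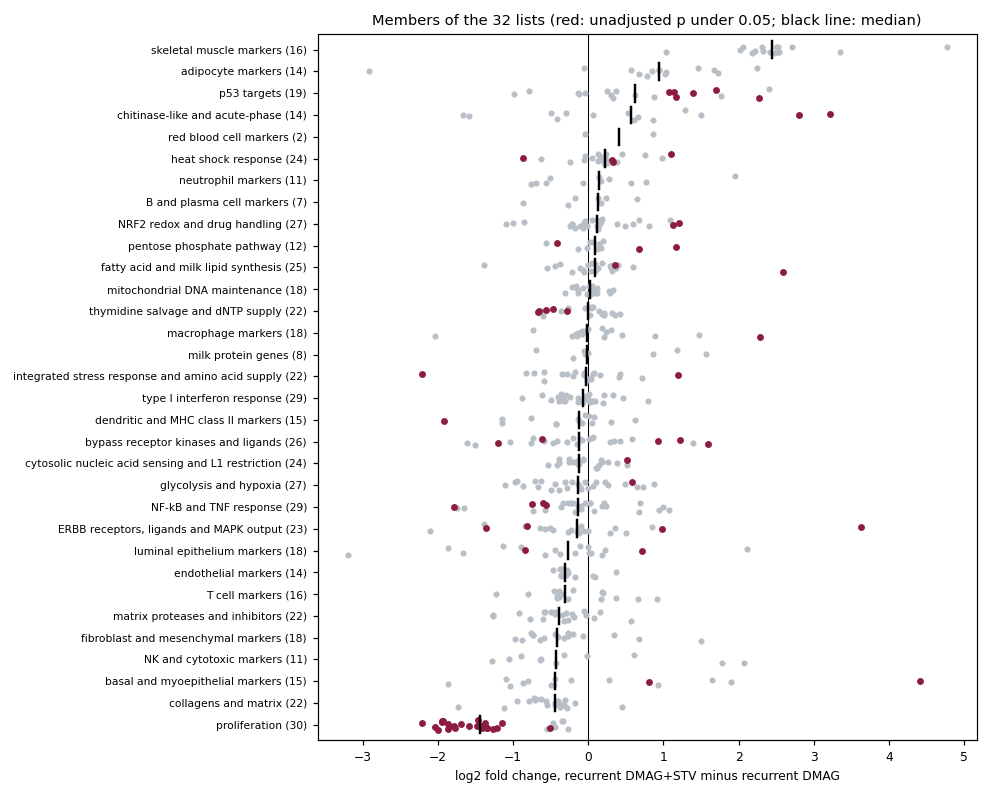
Log2 fold changes of recurrent DMAG+STV against recurrent DMAG tumors (horizontal axis) for the tested members of the 32 lists (vertical axis, number of members in brackets), 1 point per gene, red where the unadjusted p was under 0.05, with the median as a black line. The proliferation list is at the bottom with a median of -1.44, and the skeletal muscle list at the top with a median of 2.45 and 0 red points.

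Markers of other cell types were checked because any of them could move with the groups. All 16 skeletal muscle genes were higher, with a median log2 fold change of 2.45 and 0 of 16 at an unadjusted p under 0.05. Ttn, the giant sarcomere protein titin, was at 20.1, 7.77 and 955 CPM in the DMAG tumors and at 39.1 and 3628 CPM in the DMAG+STV tumors, so 1 tumor of each group was high. The median of the muscle list was -3.06 without DMAG+STV replicate 2 and 7.99 without DMAG replicate 3. Of 14 adipocyte genes, 12 were above 0 with a median of 0.94 and summed levels of 44.2 to 233 CPM in the DMAG tumors and of 140 and 427 CPM in the DMAG+STV tumors. Their median was -0.55 without DMAG+STV replicate 2. Collagen and matrix genes had 21 of 22 members below 0 and a median of -0.45, with summed levels of 2737 to 15168 CPM in the DMAG tumors and 4133 and 5404 CPM in the DMAG+STV tumors. The matrix median was 0.90 without DMAG replicate 1, which held the highest sum, so it too turned on 1 tumor.

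Leukocyte markers overlapped between the groups by their summed levels. Ptprc (CD45), the common leukocyte antigen, was at 62.0, 23.9 and 24 CPM in the DMAG tumors and at 34.8 and 31.2 CPM in the DMAG+STV tumors. Summed levels of the macrophage list were 377 to 1186 CPM against 654 and 891 CPM, those of the neutrophil list 80.0 to 799 CPM against 74.0 and 707 CPM, and those of the T cell list 29.8 to 32.7 CPM against 25.3 and 35.8 CPM. DMAG replicate 1 had the highest level of Ptprc. Without it, 9 of the 17 macrophage markers fitted were higher at an unadjusted p under 0.05, in place of 1 of 18. Over all genes that omission put 2040 of 16722 under 0.05 in both directions together, in place of 1323 of 16870. It also moved the neutrophil median to 1.02 in place of 0.14. The T cell median was -0.31 and turned to 0.17 without DMAG+STV replicate 2. The B cell markers Ms4a1 and Pax5 reached at most 4 and 2 counts in a recurrent tumor. Cd163, a macrophage scavenger receptor, was at 22.8, 4.80 and 7.32 CPM in the DMAG tumors and at 24.8 and 88.6 CPM in the DMAG+STV tumors. The 2 groups did not overlap for Cd163, with replicate 1 just above the highest DMAG tumor. Batf3, of cross-presenting dendritic cells, was at a low level throughout, at 1.20, 0.905 and 0.666 CPM against 0.288 and 0.194 CPM.

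The mammary tumor label fitted the epithelial markers. Luminal epithelium markers summed to 4957 to 5350 CPM in the DMAG tumors and to 3370 and 4969 CPM in the DMAG+STV tumors. Prlr, the prolactin receptor, was at 134, 162 and 146 CPM against 264 and 221 CPM (log2 fold change 0.72, SE 0.20, edgeR adjusted p = 0.392), the opposite direction to Epcam. Of the basal genes, Mylk was at 55.8, 32.4 and 35.8 CPM against 48.3 and 97 CPM, and Krt15 was at 0.831, 0.0464 and 0.177 CPM against 0.124 and 14.9 CPM, where DMAG+STV replicate 2 alone was high. Across the 31 lists other than proliferation, 29 of 568 tested entries were higher and 18 lower at an unadjusted p under 0.05. The shares over all genes were 3.46% and 4.38%, and 14 lists had none. Of the genes called by edgeR once both DMAG replicate 1 and DMAG+STV replicate 2 were left out, Kctd12b and Lrg1 are described above, and Srgn, Sytl4 and Wfdc3 are in the closing section.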

How the data were processed

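The deposited table held raw read counts per gene, which the authors made from ribosome-depleted total RNA aligned to GRCm38 with STAR and counted with featureCounts. The submitters' processing notes name Subread 1.6.2 and bcl2fastq 2.20, and the strand setting was not given in the sources used here. Of counts from 1 to 5, 74.4% were even, beside 49.6% of counts from 1000 to 10000, so small counts cannot be taken as independent reads. All 24421 rows named a gene, and 24313 (99.6%) matched the RefSeq annotation.

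Counts were tested in R 4.3.3 with edgeR 4.0.16 (filterByExpr, TMM factors, robust quasi-likelihood test, two-sided). All 11 tumors entered the fit with a mean for each of the 4 groups, so the primary tumors shared the estimate of spread. Benjamini-Hochberg adjustment ran over 16870 genes, and genes were called under 0.05. DESeq2 1.42.0 and limma 3.58.1 (voom) were alternatives, and the edgeR and DESeq2 steps were checked on simulated counts. The simulated tumors varied less than the real ones, so this check gives neither the power nor the error rate of the tests in these tumors. Correlations used log2 CPM with a prior count of 2. CPM floors took 3 counts over the library total and cover counting error only. Motifs were counted in Python 3.11.15.

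The members, the 32 lists (18 of pathways, 14 of cell types) and the tests were chosen with earlier results of these data known. Named genes were the 12 higher and 12 lower with the smallest p among those whose recurrent groups did not overlap and whose log2 CPM averaged 1 or more over the 5 recurrent tumors, up to 3 members of a list with the smallest p, fixed genes (Erbb2, Mki67, Nqo1, Abcb1a, Abcb1b, Hspa1a, Hspa1b, Tk1, Polg and Ptprc), and genes called by an alternative with 5 or fewer calls. List members with an unadjusted p of 0.05 or more are given for 3 lists only. Plk1, Cenpf, Cdc20, Foxm1, Top2a, the MCM genes, Pcna, Cdkn1a, Plk2, Lcn2, Spp1, Hspa5, Hsp90ab1, Tnf and Ttn, the promoters printed, the default eBayes setting of voom and the split of the proliferation list were chosen after their values were seen. Some genes that this rule names or the lists hold are not reported here by name, but stay in every count and median. Alternatives are in the closing section.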

Additional observations from a re-analysis of the deposited data

How the results depend on the processing

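The count of 0 genes called by edgeR for STV in recurrent tumors was 270 with DESeq2, and with 1 recurrent tumor left out at a time it ran from 0 to 141 (141 without DMAG+STV replicate 1, 1 without DMAG replicate 1). It was 5 without both DMAG replicate 1 and DMAG+STV replicate 2, a choice made after seeing the data. Of these 5, Kctd12b and Sytl4 were lower and Lrg1, Srgn and Wfdc3 higher, and the cause was not tested. Genes at an unadjusted p under 0.05 numbered 781 in a fit of the 5 recurrent tumors alone and 488 to 2040 with 1 left out (488 without DMAG+STV replicate 2, 2040 without DMAG replicate 1). For the difference between the STV effects, DESeq2 called 185 genes, and with 1 recurrent tumor left out edgeR called 0 to 77 (77 without DMAG+STV replicate 1, 1 without DMAG replicate 1), with 674 to 2241 at an unadjusted p under 0.05. A lone remaining tumor was assumed to vary like the other groups. Tumors with the same replicate number had correlations of deviations from their group means of -0.05 for number 1 and -0.26 for number 2. With 2 DMAG+STV tumors these deviations mirror each other, so the values cannot tell whether samples were paired. With the replicate number as a block edgeR called 0 genes in both comparisons. That fit had 1116 genes at an unadjusted p under 0.05 for STV in recurrent tumors and a log2 fold change of -0.040 for Hspa1a. With 1 tumor left out, these log2 fold changes changed sign: Nrg1 (-0.018 to 5.91), Krt15 (-1.49 to 5.38), Nqo1 (-0.96 to 0.50), Abcb1a (-0.15 to 1.03), Abcb1b (-0.41 to 1.79), Hspa1a (-0.69 to 0.51), Hspa1b (-0.56 to 0.31), Ptprc (-0.40 to 0.45), Srgn (-2.87 to 2.95), Wfdc3 (-1.37 to 3.92), Sytl4 (-3.54 to 0.23), Plk2 (-0.51 to 2.51), Spp1 (-0.70 to 6.32) and Ttn (-3.07 to 7.04). Without both tumors Nqo1 was at 0.96, Abcb1b at -0.039, Hspa1b at 0.57, Ptprc at 0.53, Srgn at 3.81, Mcm2 at 0.0036, Plk2 at -0.48 and Ttn at -3.62, and with voom Hspa1a was at -0.045, Ptprc at 0.012 and Srgn at 0.67. Other factors, filters, gene totals and the fit of all 13 libraries called 0 genes. Depth limits the low genes, such as Batf3 with 9 to 49 counts and Cxcl10 with 24 to 65 counts in a recurrent tumor.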
